A study of Mus musculus with 3 samples.

Results

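Genes by which a mature beta cell is recognised, and by which it senses glucose, were followed in pancreatic islets of mice that lack the endoplasmic reticulum stress sensor IRE1α in beta cells. There are 7 of them, with Mafa, Ucn3 and Slc2a2 grouped here as late maturity genes. Gipr encodes an incretin receptor, and Abcc8, Neurod1 and Rfx6 are shared by other endocrine cells of the islet. The 7 genes were found by gene name in the deposited tables of each cell type. All 7 stood among the 8193 genes of the beta-cell table, and 0 of 7 among the 186 genes of the alpha-cell table or the 231 of the delta-cell table, so their levels in alpha and delta cells were not analysed here.

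The knockout group (KO, genotype label IRE1[alpha][beta]-/-) had 2 mice and the control group (label IRE1[alpha]fl/fl, floxed alleles without the knockout) had 1 mouse. All 3 were NOD/ShiLtJ, a strain that develops autoimmune diabetes on its own, were 5 weeks old and had been injected with tamoxifen at 10 mg per ml on 5 days. The Cre driver is not named in the sources used here. Islets were profiled after a night in culture as single cells in droplets, with each captured transcript counted as 1 unique molecular identifier (UMI), and the comparison asks how beta cells differed between the genotypes.

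A mouse beta cell takes up glucose through GLUT2, the product of Slc2a2. The ATP made from it closes a potassium channel built of SUR1, encoded by Abcc8, and a pore subunit encoded by Kcnj11. The membrane then depolarises, calcium enters and insulin granules fuse. The gut hormone GIP adds to this through its receptor, encoded by Gipr, and cyclic AMP. The transcription factor MAFA drives insulin genes in adult mouse beta cells. Ucn3 encodes urocortin 3, a peptide that appears late in beta-cell maturation and acts on delta cells. NEUROD1 and RFX6 are transcription factors needed to form islet endocrine cells, and beta cells keep both in the adult.

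Sequence before the start site was at hand for 4 of the 7 genes, the late maturity genes Ucn3 and Slc2a2 and the shared genes Neurod1 and Rfx6, and is printed so that promoters of both groups can be compared. Each run is the 250 bases before the start site from RefSeq (build GRCm38.p6), 5′ to 3′ on the gene's own strand: Ucn3 at chr13:3945350-3945599 (minus strand), Slc2a2 at chr3:28697653-28697902 (plus), Neurod1 at chr2:79456637-79456886 (minus) and Rfx6 at chr10:51685268-51685517 (plus). This start site is the same in GENCODE M21, whose gene coordinates are given below, for Ucn3 and Slc2a2, but lies 115 bases inside the GENCODE gene for Neurod1 and 7762 bases inside it for Rfx6. Capitals mark, on either strand, the E-box CANNTG, which factors such as NEUROD1 bind, the core TGCTGA of MAF sites and the core GTTGCC of RFX sites.
Ucn3: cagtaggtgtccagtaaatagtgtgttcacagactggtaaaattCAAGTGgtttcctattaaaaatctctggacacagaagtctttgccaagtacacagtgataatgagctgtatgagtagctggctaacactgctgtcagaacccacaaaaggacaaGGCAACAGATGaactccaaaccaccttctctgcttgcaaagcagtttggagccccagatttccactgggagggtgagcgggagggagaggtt
Slc2a2: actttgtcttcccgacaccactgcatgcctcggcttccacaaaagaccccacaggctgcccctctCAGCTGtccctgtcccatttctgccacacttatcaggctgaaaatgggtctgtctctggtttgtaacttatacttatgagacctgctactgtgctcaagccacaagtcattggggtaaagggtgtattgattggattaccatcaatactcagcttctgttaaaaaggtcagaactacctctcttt
Neurod1: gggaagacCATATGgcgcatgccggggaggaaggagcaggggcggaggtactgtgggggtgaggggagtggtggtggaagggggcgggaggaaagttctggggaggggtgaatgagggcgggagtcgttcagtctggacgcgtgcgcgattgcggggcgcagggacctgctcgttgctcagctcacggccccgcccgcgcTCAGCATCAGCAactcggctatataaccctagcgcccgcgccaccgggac
Rfx6: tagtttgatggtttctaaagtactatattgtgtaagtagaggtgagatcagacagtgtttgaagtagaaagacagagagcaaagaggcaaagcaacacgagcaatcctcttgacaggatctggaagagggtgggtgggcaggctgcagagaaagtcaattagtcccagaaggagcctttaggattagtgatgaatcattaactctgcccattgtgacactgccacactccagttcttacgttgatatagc

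The E-box, found in 66.2% of the 32851 promoters of this length, was present in 3 of the 4: 206 and 87 bases before the start in Ucn3, 185 bases before it in Slc2a2 and 242 bases before it in Neurod1. In Ucn3 the E-box nearer the start overlapped by its first base an RFX core, which 10.4% of promoters hold. The MAF core (16.1% of promoters) was found only in Neurod1, among these 4, at 50 and 44 bases before the start, so that its capitals run together. The Rfx6 window held none of the capitalised motifs, which says nothing of the sequence before the GENCODE start. The homeodomain core TAAT, not capitalised, was held by 54.9% of promoters and was present in Ucn3, Slc2a2 and Rfx6. Neurod1 differed from the other three in base composition, with 67.6% G and C and 22 CpG pairs, against 44.0 to 47.2% and 1 or 2 CpG pairs. A match of letters is a description of these windows only. Mafa, Gipr and Abcc8 have no entry in the table used.

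Values are mean UMIs per cell, over 815 beta cells of the KO mice, pooled by the authors into 1 column, and 829 beta cells of the control mouse. The table holds only genes that its authors listed as different in this same comparison, so being listed is no finding about the 7 genes. In the authors' deposited table their adjusted p, computed from cells, ran from 1.09e-30 for Abcc8 to 4.58e-05 for Ucn3. With 1 control mouse and the KO mice pooled, no test against the spread between mice could be made. Brackets give exact 95% intervals of the ratio of KO over control, which cover counting error only, and a difference was counted when it reached 1.5-fold.

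The late maturity genes were all lower in KO beta cells, the incretin receptor gene was lower too, and none of the shared endocrine genes was lower as UMIs per cell. Lower by at least 1.5-fold were 3 of 3 late maturity genes and Gipr, where 2.47% of all 8193 listed genes were (4.19% after centring on the median listed gene, 1.37% with columns scaled to their listed totals), and 0 of 3 shared endocrine genes. Of the shared genes 1, Rfx6, was higher by at least 1.5-fold, as were 45.7% of listed genes (16.0% after centring, 83.2% scaled to the totals). The median log2 fold was -1.19 for the 3 late maturity genes and 0.33 for the 3 shared genes, against 0.54 for all listed genes.

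Mafa (ENSMUSG00000047591; mm10 chromosome 15, 75745490 to 75748228, minus strand) had 1.23 UMIs per KO beta cell and 3.38 per control beta cell. This is a ratio of 0.364 [0.338 to 0.391], from 1004 UMIs in KO and 2805 in control cells. Mafa was thus captured in KO beta cells at little more than 1 UMI per cell. Only 47 of the 8193 listed genes had a lower ratio.

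Slc2a2 (ENSMUSG00000027690; chromosome 3, 28697903 to 28731359, plus strand) had 0.119 UMIs per KO cell and 0.271 per control cell, a ratio of 0.439 [0.342 to 0.559] from 97 UMIs in KO and 225 in control cells. An antisense gene, 1700112D23Rik, overlaps it and is not among the listed genes. Ucn3 (ENSMUSG00000044988; chromosome 13, 3940688 to 3945349, minus strand) had 0.385 UMIs per KO cell and 0.691 per control cell. Its ratio of 0.557 [0.484 to 0.641] had an interval that did not overlap that of Mafa but did overlap that of Slc2a2. With each column scaled to its listed UMI total, the ratio of Ucn3 was 0.709 and no longer reached 1.5-fold, while those of Mafa and Slc2a2 were 0.463 and 0.558.

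Gipr (ENSMUSG00000030406; chromosome 7, 19156061 to 19166127, minus strand) had 0.0687 UMIs per KO cell and 0.221 per control cell. Its ratio was the lowest of the 7 genes at 0.311 [0.226 to 0.422], and rests on 56 UMIs in KO and 183 in control cells. The interval overlapped those of Mafa and Slc2a2, so the order of these 3 genes is not set by the counts. A pseudocount of 0.0519 UMIs per cell, close to the level of Gipr in KO cells, brought its log2 fold to -1.18 from -1.68 without one.

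**Figure D1:**
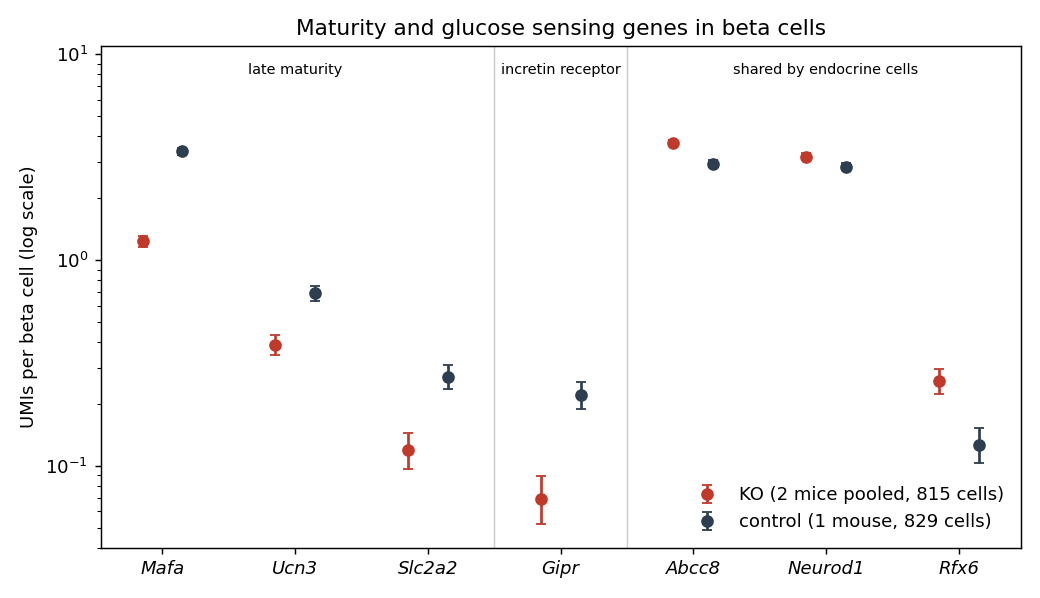
UMIs per beta cell (log scale) of the 7 genes in KO cells (left point of each pair, 2 mice pooled) and control cells (right point, 1 mouse); bars are exact 95% Poisson intervals of the mean, for counting error only. Mafa, Ucn3, Slc2a2 and Gipr sit lower in KO cells, Rfx6 sits higher at 0.258 in KO against 0.127 in control cells, and the points of Abcc8 and Neurod1 lie close together.

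Abcc8 (ENSMUSG00000040136; chromosome 7, 46104523 to 46180033, minus strand) had 3.71 UMIs per KO cell and 2.94 per control cell, a ratio of 1.26 [1.20 to 1.33]. It is overlapped by Gm45487 on the same strand and Gm45486 on the other, neither of them listed. Its partner in the channel, Kcnj11, had 0.607 UMIs per KO cell and 0.603 per control cell, a ratio of 1.01 [0.888 to 1.14]. Neither gene of the channel was lower as UMIs per cell, though both lay below the median listed gene, by 0.21 (Abcc8) and 0.53 (Kcnj11) on the log2 scale. Neurod1 (ENSMUSG00000034701; chromosome 2, 79452521 to 79456751, minus strand) had 3.18 UMIs per KO cell and 2.84 per control cell, a ratio of 1.12 [1.06 to 1.18]. Cerkl lies over Neurod1 on the same strand and was listed itself, with 0.342 UMIs per KO cell and 0.210 per control cell. Gm26755, on the other strand, overlaps it too and is not listed; the sources used here do not say how reads of overlapping genes were shared out.

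Rfx6 (ENSMUSG00000019900; chromosome 10, 51677756 to 51730432, plus strand) had 0.258 UMIs per KO cell and 0.127 per control cell. The ratio of 2.03 [1.60 to 2.60], from 210 UMIs in KO and 105 in control cells, was the highest of the 7 genes. It was not extreme in the table, where 1554 listed genes had a higher ratio, and after centring its ratio of 1.40 did not reach 1.5-fold.

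The direction of Abcc8 and Neurod1 depended on the scale. After centring on the median listed gene, which has a ratio of 1.45, Abcc8 was at -0.21 and Neurod1 at -0.38 on the log2 scale. Scaled to the listed total they were at 0.68, which passes 1.5-fold, and 0.51, and scaled to that total without Ins1, Ins2 and Iapp at 0.0673 and -0.11. Rfx6 was above 0, and Mafa, Ucn3, Slc2a2 and Gipr below 0, under each of the 4 scalings. The scalings to the listed total with and without insulin and amylin transcripts (Ins1, Ins2 and Iapp) differ by the share of these transcripts. It was 53.9% of the listed UMIs in KO cells and 69.9% in control cells, with listed totals of 24796 UMIs per KO cell and 31552 per control cell. Centring differs from both, as it takes 0.54 from each log2 fold, where the total without these transcripts takes 0.27.

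A comparison between 2 of the genes needs no scaling, since any factor on a column cancels. In all 12 pairs of a lower gene (Mafa, Ucn3, Slc2a2 or Gipr) with a shared endocrine gene, the first gene was lower relative to the second in KO cells, with log2 differences between their folds from -2.71 (Gipr against Rfx6) to -1.0 (Ucn3 against Neurod1). This direction was fixed beforehand, since the lower genes had fewer and the shared genes more UMIs per KO cell. The pairs restate the folds given above and add no further support, so only their sizes are read here. Relative to Neurod1, Mafa in KO cells stood at 0.326 times its control value [0.297 to 0.357], Slc2a2 at 0.392 [0.304 to 0.504] and Ucn3 at 0.499 [0.428 to 0.580]. Relative to Abcc8, the values were 0.289 [0.264 to 0.316] for Mafa and 0.247 [0.179 to 0.336] for Gipr. The highest upper bound over the 12 pairs was 0.580.

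**Figure D2:**
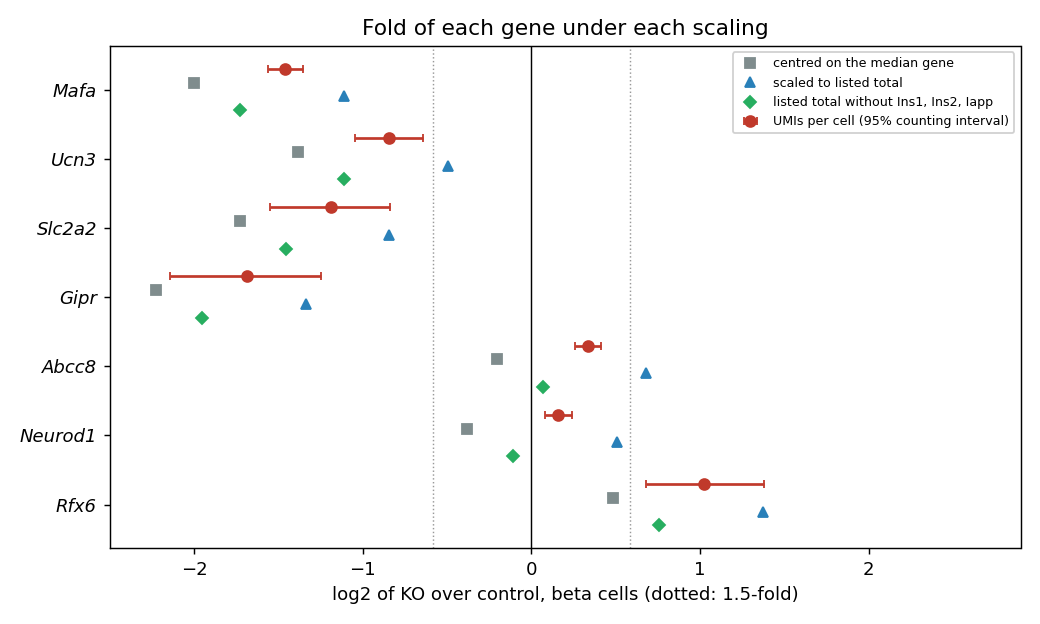
Log2 of KO over control for each gene (rows) under 4 scalings; circles are UMIs per cell with exact 95% counting intervals, and dotted lines mark 1.5-fold. Mafa, Ucn3, Slc2a2 and Gipr lie left of 0 under each scaling and Rfx6 right of it, while Abcc8 and Neurod1 lie on both sides.

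The table, which holds only genes listed as different, left a band of folds empty. Each band was taken as the widest gap between neighbouring folds in a set window about 0. By this rule each range of levels returns a band. Among listed genes with 1 to 3 UMIs per control cell, no log2 fold lay between -0.46 and -0.16, and among those with 3 to 10 UMIs none lay between -0.50 and -0.20. With 0.3 to 1 UMIs the band ran from -0.49 to -0.11, and with 0.1 to 0.3 UMIs, the range of Slc2a2, Gipr and Rfx6, from -0.58 to 0.12. The middles of the 4 bands lay between -0.35 and -0.23, beside a log2 ratio of the listed totals of -0.35. What places them there was not tested. Abcc8, Neurod1 and Rfx6 lay above their bands and Mafa, Ucn3, Slc2a2 and Gipr below theirs, as listed genes must. This reading of the table was made after its values were seen.

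**Figure D3:**
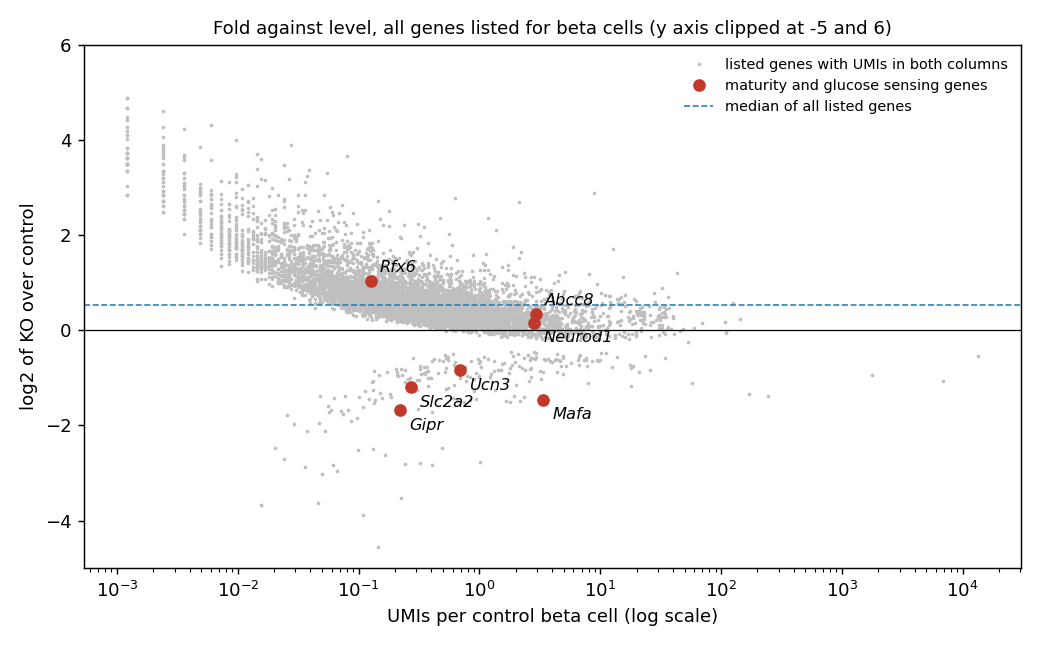
Log2 of KO over control (y axis, clipped) against UMIs per control beta cell (x axis, log scale) for listed genes with UMIs in both columns (grey) and the 7 genes (red); the dashed line is the median of all listed genes, 0.54. The grey points leave an empty band, mostly below 0, with Mafa, Ucn3, Slc2a2 and Gipr under it and Abcc8, Neurod1 and Rfx6 over it.

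Of the 7 genes, Mafa had the most distant neighbours: the listed genes nearest to it over the 2 columns, by distance in log2 UMIs per cell, were Ero1l, an oxidase of the endoplasmic reticulum, at 0.37 and the glycolytic gene Pgk1 at 0.38. Those nearest to Ucn3 were Psat1 (0.06), of serine synthesis, and Tnfrsf9 (0.07). Those nearest to Slc2a2 were Epb41l4a (0.09) and Mfsd6l (0.11), and to Gipr Dubr (0.26) and Scrt1 (0.29). For the shared genes they were Clic4 and Atp5a1 (both 0.04) for Abcc8, Csnk1a1 (0.02) and Errfi1 (0.04) for Neurod1, and C1qtnf6 (0.01) and Derl3 (0.04) for Rfx6. Nearness over 2 columns says only that levels and folds were alike.

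Among 21 genes fixed as markers of the mature beta cell, 13 were listed, and 8 of these were lower by at least 1.5-fold and 3 higher (2.47% and 45.7% of all listed genes). The lower ones include Mafa, Ucn3, Slc2a2 and Gipr. Leaving those out, 4 of 9 were lower: Ins1, Iapp, Trpm5, a calcium-activated cation channel gene, and Ero1lb, an oxidase that helps fold proinsulin. The highest were Esrrg, a nuclear receptor gene tied to metabolic maturation of beta cells, at 2.83 [1.51 to 5.65] on 39 UMIs in KO and 14 in control cells, and Vdr, the vitamin D receptor gene, at 1.57 [1.39 to 1.77]. The list's median log2 fold was -0.84, which is the fold of Ucn3 itself. Without Mafa, Ucn3, Slc2a2 and Gipr it was -0.55. This list and those below were chosen with earlier results of these data known, so their counts are a description only.

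The islet transcription factor genes as a group did not go the way of Mafa, and neither did most listed genes. Of 30 fixed genes 23 were listed, 13 of them higher and 2 lower by at least 1.5-fold (45.7% and 2.47% of all listed genes), with a median log2 fold of 0.70 against 0.54 for all listed genes. The 2 lower genes were Mafa and St18, a zinc finger factor, which had 1.24 UMIs per KO cell and 1.98 per control cell, a ratio of 0.626 [0.578 to 0.678]. At the other end were Thra, a thyroid hormone receptor gene, at 2.80 [2.16 to 3.66], and Bach2, which had 12 UMIs in KO cells and 0 in control cells. Pdx1, Nkx6-1, Pax6 and Isl1 were not analysed here.

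Of 23 genes of glucose uptake, glycolysis and mitochondrial coupling, 14 were listed, and Slc2a2 was the 1 lower by 1.5-fold. Another 4 were higher, and the median log2 fold was 0.34, where 2.47% of all listed genes were lower and 45.7% higher, with a median of 0.54. Mpc1, of the mitochondrial pyruvate carrier, was next lowest after Slc2a2 at 0.960 [0.896 to 1.03]. Pklr, a pyruvate kinase gene, at 2.92 [1.59 to 5.65] on 43 UMIs in KO and 15 in control cells, and Ucp2, of the inner mitochondrial membrane, at 1.93 [1.81 to 2.06], were the highest.

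Channel and calcium handling genes, which act after glucose metabolism, had the sign of Abcc8 as UMIs per cell: of 17 listed of 24, 16 had more UMIs per KO cell, 8 of them by at least 1.5-fold, with a median log2 fold of 0.42 (45.7% and 0.54 over all listed genes). The exception was Trpm5, with 0.373 UMIs per KO cell and 0.778 per control cell, a ratio of 0.479 [0.417 to 0.550]. Kcnk3, a background potassium channel gene, at 7.73 [3.04 to 25.2], rests on 38 UMIs in KO and 5 in control cells, and Kcnh6, a voltage-gated one, at 2.47 [1.29 to 4.98], on 34 in KO and 14 in control cells. Kcnk3 had 0.0466 UMIs per KO beta cell and 0.00603 per control beta cell. Its level per alpha cell was far higher, at 0.822 and 0.870 in the KO mice and 0.627 in the control mouse. The part of alpha-cell RNA in its beta-cell values was not tested. Since only 5.04% of all listed genes had fewer UMIs per KO cell, 1 of 17 is near the background.

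Around Gipr, 16 of 28 receptor and cyclic AMP genes were listed. Gipr was the 1 lower by 1.5-fold and 7 were higher, and the list's median log2 fold was 0.46, where 45.7% of all listed genes were higher, with a median of 0.54. Prkar1a, a regulatory subunit of protein kinase A, was next lowest, with 8.39 UMIs per KO cell and 9.21 per control cell, a ratio of 0.912 [0.882 to 0.942]. Pde8b, a cyclic AMP phosphodiesterase gene, was at 2.68 [1.30 to 5.95], and Ptger3, a prostaglandin receptor gene, had 27 UMIs in KO cells and 0 in control cells. The other incretin receptor gene, Glp1r, was not analysed here.

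Of 19 genes of insulin granule exocytosis 11 were listed, 2 were higher and 0 lower by 1.5-fold, and the median log2 fold was 0.35, again with 45.7% and 2.47% over all listed genes. Cplx2, a complexin that acts in vesicle fusion, was at 1.96 [1.80 to 2.15] and Ptprn2, of the granule membrane, at 1.77 [1.55 to 2.02]. Ptprn, its close relative, was at 0.930 [0.901 to 0.960] and the prohormone convertase gene Pcsk2 at 0.968 [0.944 to 0.992].

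Genes of immature or dedifferentiated beta cells were mostly higher. Of 17 fixed genes 10 were listed, 9 of them higher by at least 1.5-fold, with a median log2 fold of 2.49, where 45.7% of all listed genes were higher, with a median of 0.54. Pyy and Rbp4 of this list are also among the markers of other islet cells given below. The hormone gene Cck was at 14.9 [9.77 to 23.8] and Aldh1a3, an aldehyde dehydrogenase gene, at 9.79 [4.73 to 23.5]. At the other end stood Sox4, a transcription factor gene, at 1.63 [1.38 to 1.92], and Ldha, the lactate dehydrogenase gene that adult beta cells keep low, at 0.180 [0.138 to 0.232]. This list was drawn up with those values known.

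**Figure D4:**
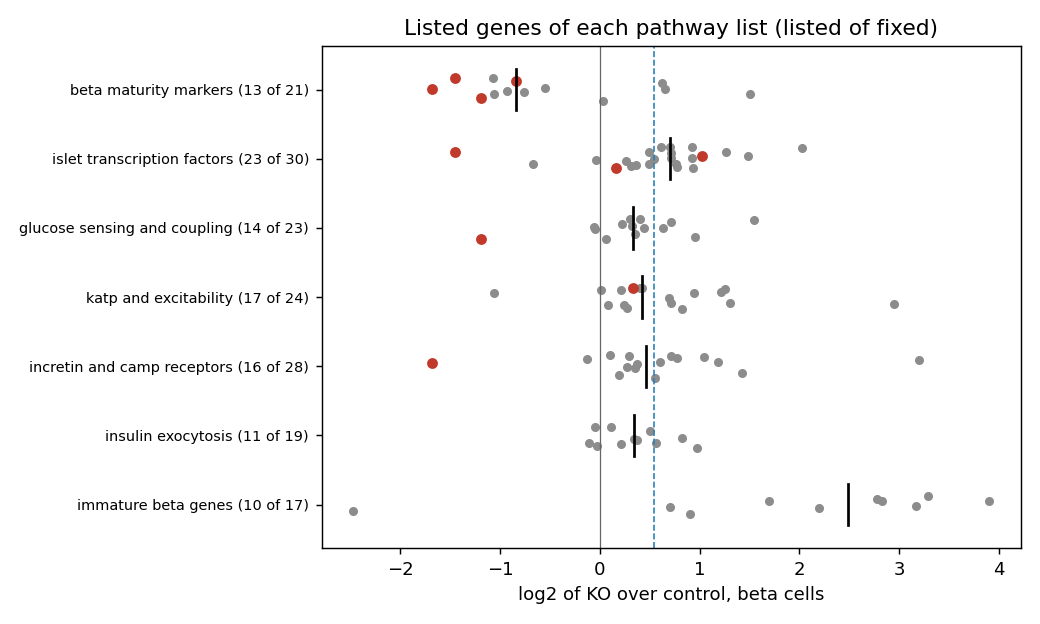
Log2 of KO over control in beta cells (x axis) of the listed genes of each pathway list (rows, with the number listed of those fixed); red points are the 7 genes, black bars are list medians and the dashed line is the median of all listed genes, 0.54. Mafa, Slc2a2 and Gipr lie far left of the other points of the transcription factor, glucose sensing and receptor lists.

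Markers of other cells mostly had more UMIs per KO beta cell, as did most listed genes, whose median ratio was 1.45. In each marker group the median log2 fold lay above that of all listed genes. The excess was 0.33 for duct, 0.36 for delta and 0.67 for alpha cells. It was 1.75 for pancreatic polypeptide and epsilon cells, 2.37 for mesenchyme and 8.58 for red cells. Of the alpha-cell markers 4 of 9 were listed, summing to 113 UMIs per KO cell and 48.8 per control cell, and of the delta-cell markers 3 of 8, summing to 64.6 in KO and 39.6 in control cells. For pancreatic polypeptide and epsilon cells 2 of 4 summed to 107 in KO and 21.7 in control cells, for duct cells 6 of 10 to 76.5 in KO and 41.7 in control cells, and for red cells 3 of 5 to 22.6 in KO and 0.0639 in control cells. Endothelial markers (3 of 7) summed to 0.521 UMIs per KO cell and 0.270 per control cell. Of these Pecam1 and Egfl7 were higher by at least 1.5-fold, and Cdh5 was lower, with 1 UMI in KO and 13 in control cells. Mesenchymal markers (4 of 8) summed to 0.117 in KO and 0.00844 in control cells, with Col1a1 and Dcn at 0 in control cells. Immune ones (4 of 10) summed to 0.564 in KO and 0.641 in control cells. Of these immune markers Cd74, Cd79a and Lyz2 were higher by at least 1.5-fold, and Cd68 was lower, with 0.0577 UMIs per KO cell and 0.409 per control cell. The 1 listed acinar marker of 14, Reg3b, had 0.114 UMIs per KO cell and was at 0 in control cells. Their part in the lower Mafa, Ucn3, Slc2a2 and Gipr was not tested. The targeted gene itself, Ern1, had 0.742 UMIs per KO cell and 0.509 per control cell, and since the sources used here name neither the removed exons nor the sequenced end of the transcript, this does not check the label.

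In alpha and delta cells, where the KO mice have a column each, few genes of these lists were listed: 9 in alpha and 5 in delta cells. In alpha cells Mdh1, a cytosolic enzyme of the malate shuttle, had 0.984 and 1.23 UMIs per cell in the KO mice and 1.66 in the control mouse. Myt1, a transcription factor gene of endocrine cells, had 0.178 and 0.232 in the KO mice and 0.0563 in the control mouse. For either gene the KO mice were both lower or both higher than the control mouse, whereas for Vamp2, a vesicle fusion gene, 1 was higher and 1 lower, at 1.32 and 0.960 in the KO mice and 1.30 in the control mouse. In delta cells Cplx2 had 1.53 and 1.68 UMIs per cell in the KO mice and 0.802 in the control mouse, and Ptprn had 6.62 and 4.92 in the KO mice and 8.43 in the control mouse. Ldha had 0.109 and 0.0339 UMIs per alpha cell in the KO mice and 0.528 in the control mouse. In delta cells Ldha had 0.601 and 0.385 in the KO mice and 2.05 in the control mouse. Iapp had 54.7 and 69.6 UMIs per alpha cell in the KO mice and 126 in the control mouse. In delta cells Iapp had 797 and 698 in the KO mice and 1825 in the control mouse. Ldha and Iapp thus had fewer UMIs per KO cell in alpha, beta and delta cells alike. Alpha cells also held Ins2, at 160 and 151 UMIs per cell in the KO mice and 214 in the control mouse. Ins1 was at 36.0 and 83.1 in the KO mice and 93.6 in the control mouse. The part of beta-cell RNA in these alpha- and delta-cell values was not tested. Cplx2, Ptprn, Ldha and Iapp had the same direction as UMIs per beta cell. Rbp4, which carries retinol, had the opposite one, with 84.2 and 69.1 UMIs per delta cell in the KO mice and 137 in the control mouse, and 7.43 and 9.90 per alpha cell in the KO mice and 15.7 in the control mouse, but 5.47 per KO beta cell and 2.94 per control beta cell.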

How the data were processed

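Per the labels' protocols, hand-picked islets were cultured overnight, dissociated with accutase and made into libraries by the 10X Genomics protocol. The submitters' processing notes name Cell Ranger 3.0.0 and mm10; these sources do not say how cells were filtered and typed, how doublets and free RNA were handled, or which test was used. The authors deposited, per cell type, a signal value for each gene, the mean UMIs per cell, and p-values computed from cells. Each column's cell number was the whole number that turned its values into whole UMIs within 0.001 (at least 99.99% of genes). Since they turn into whole UMIs, the deposited means carry no scaling factor for depth. Whether reads were evened out between samples beforehand cannot be told from them. Listed UMIs, which leave out genes not listed, numbered 20208459 in KO and 26156682 in control beta cells.

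From these, ratios of KO over control were computed without a pseudocount, with exact Clopper-Pearson intervals on the split of the UMIs (Python 3.11.15, SciPy 1.17.1). This step was tested on simulated UMIs that held counting error alone, so the test does not cover spread between cells or mice. A column at 0 was set to 3 UMIs (95 genes in control, 8 in KO). Intervals cover counting error only. The 13 gene names turned into dates were restored by Ensembl identifier; 8187 of 8193 identifiers were found in GENCODE M21, the source of gene coordinates. Alternatives were 3 other scalings, a pseudocount, a filter at 0.1 UMIs per cell and a fold of 2.

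The genes and lists were chosen with earlier results of these data known. Named genes were the 7, the 2 highest and 2 lowest of each list, channel subunits and incretin receptors, and the 2 genes nearest each of the 7. Insulin genes, marker genes at 0, Ern1, genes not analysed and the genes named for alpha and delta cells stand outside this rule. So do Ero1lb, Cerkl, Rbp4 and the endothelial and immune markers, and all of these were chosen after their values were seen. Some genes of these lists are not reported here.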

Additional observations from a re-analysis of the deposited data

How the results depend on the processing

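The 3 late maturity genes stayed lower and Rfx6 higher under the 5 alternatives to the main scale, and so did Gipr stay lower; the count of late maturity genes lower by 1.5-fold was 2 of 3 when scaled to the listed total (without Ucn3), and 2 of 3 at a fold of 2. Centring on the median listed gene gave log2 folds of -2.0 for Mafa, -1.38 for Ucn3, -1.73 for Slc2a2, -2.22 for Gipr, 0.48 for Rfx6 and, turned in sign, -0.21 for Abcc8 and -0.38 for Neurod1. Scaling to the listed total gave -1.11 for Mafa, -0.50 for Ucn3, 0.68 for Abcc8 and 0.51 for Neurod1. The same total without Ins1, Ins2 and Iapp gave -1.73 for Mafa, -1.11 for Ucn3, 0.0673 for Abcc8 and, turned in sign, -0.11 for Neurod1. The pseudocount moved Gipr to -1.18. The shifts between scalings follow from their construction, since each adds 1 constant to all log2 folds. The filter at 0.1 UMIs per cell leaves each fold as it is, and a pseudocount cannot turn its sign. Of the 5 alternatives, only the scalings could thus change a direction. Listed genes lower by 1.5-fold numbered 202, against 343 after centring, 112 scaled to the listed total and 99 at a fold of 2. Those higher numbered 3741, against 1314 after centring, 6816 scaled to the listed total, 2104 scaled without the insulins and Iapp, 2171 with the pseudocount and 1626 at a fold of 2.

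No paired analysis was possible because the beta-cell table has 1 control column and 1 pooled KO column. Leaving out either KO mouse, planned for alpha and delta cells, gave no value, since 0 of the 7 genes were listed there. Counting error limits Gipr and Slc2a2 most, at 56 and 97 UMIs in KO cells.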
